A study of Homo sapiens with 2 samples.

Results

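ETV2 mRNA was 6.25-fold lower in MEIS2-/- cells than in WT cells at day 4 of hematopoietic differentiation. ERG and FLI1 mRNA were also lower, and GABPA and ELF1 mRNA were slightly higher. These genes encode transcription factors of the ETS family. The 10 genes described are ETV2, the endothelial genes FLI1, ERG, ETS1, ETS2 and ELK3, the broadly expressed genes ETV6, ELF1 and GABPA, and the blood gene SPI1. They were chosen by name as ETS-domain genes of the hemogenic lineage, with earlier results of these data known. All 10 are among the 17397 genes listed in the deposited tables. The data came from RNA-Seq of 2 libraries, 1 from wild-type H1 cells (WT) and 1 from H1 cells with both copies of MEIS2 disrupted (MEIS2-/-). H1 is a human embryonic stem cell line in wide use. Both cultures received 50 ng/ml activin A with 40 ng/ml BMP4 for 2 days, followed by 40 ng/ml VEGF with 50 ng/ml bFGF for another 2 days. The knockout cells were made with a lentiviral CRISPR/Cas9 vector and grown from single cells, so each mutant line is 1 clone, and the labels do not say which clone was sequenced. MEIS2 itself was at 10.85 FPKM in WT and 3.44 FPKM in MEIS2-/- cells (log2 fold change -1.63).

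ETS factors share a winged helix-turn-helix DNA-binding domain that recognises a GGAA core. ETV2 is a pioneer factor that is switched on briefly in mesoderm and starts the blood and endothelial program, after which FLI1, ERG and ETS1 keep endothelial genes active. SPI1, also called PU.1, acts later, in myeloid and B cells, and GABPA works in most cell types, where it activates genes of mitochondria and of basic metabolism.

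Levels are given as FPKM, fragments scaled to transcript length and to the mapped total, so that levels of different genes within a library can be compared. A log2 fold change is log2 of MEIS2-/- over WT after 0.1 FPKM was added to both values, and this makes differences of poorly expressed genes look smaller. The comparison took in the 13075 genes that reached 1 FPKM in either library, whose median log2 fold change was 0.12. Where values are given as a pair without names, the WT value comes first. Since each genotype was sequenced once, nothing shows how far replicates would differ, and no test was possible. Lower RNA per cell and fewer cells of a type cannot be told apart in such bulk samples.

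ETV2 (NCBI Gene 2116) was at 109.62 FPKM in WT and 17.54 FPKM in MEIS2-/- cells. It kept 16% of its WT level, a log2 fold change of -2.64. In WT cells ETV2 was the most abundant ETS gene and stood at percentile 96.4 of all listed genes, and in MEIS2-/- cells it stood at percentile 74.6. Only 102 of the 13075 compared genes (0.78%) had a lower log2 fold change. Among the 701 compared genes at 100 FPKM or more in WT cells, 12 had a lower one. ETV2 was thus still well expressed in the MEIS2-/- library, but no longer prominent. It is a short gene of 3.13 kb on the plus strand of chromosome 19, from 35641745 to 35644871 of GRCh38 in the GENCODE 29 annotation.

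**Figure D1:**
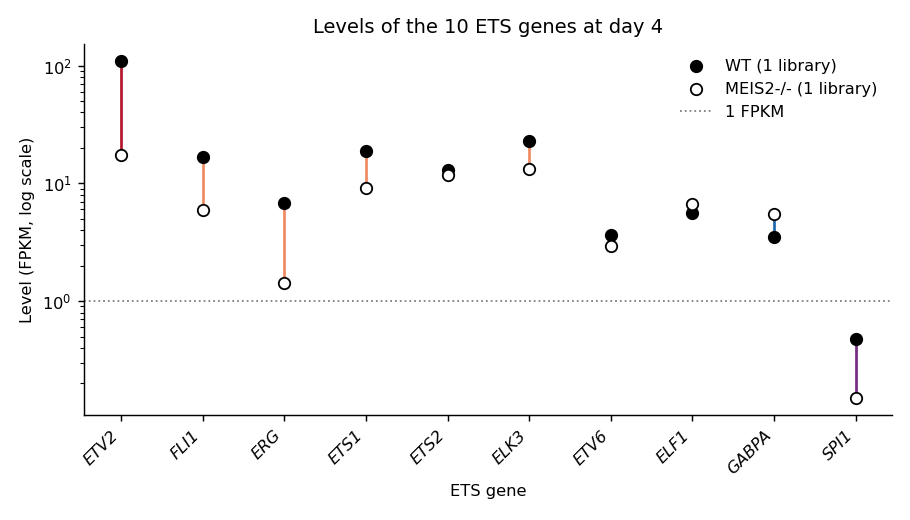
Levels of the 10 ETS genes in FPKM on a log axis, with filled points for the WT library, open points for the MEIS2-/- library and a dotted line at 1 FPKM. The gap is widest for ETV2 and ERG among the genes above the line, both points of ETS2 nearly coincide, and GABPA and ELF1 are higher in MEIS2-/- cells.

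ERG and FLI1 came next after ETV2. These close relatives maintain endothelial identity, and FLI1 also serves in megakaryocytes. ERG (NCBI Gene 2078) was at 6.82 FPKM in WT and 1.43 FPKM in MEIS2-/- cells (log2 fold change -2.18) with 21.0% of the WT level kept. FLI1 (NCBI Gene 2313) was at 16.78 FPKM and 5.90 FPKM (log2 fold change -1.49) with 35.2% kept. FLI1 mRNA exceeded ERG mRNA 2.46-fold in WT cells and 4.13-fold in MEIS2-/- cells. ERG therefore differed more between the libraries than FLI1 did, although both belong to the same subfamily.

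The other endothelial ETS genes differed less. ETS1 (NCBI Gene 2113), which acts in endothelium and lymphocytes, was at 18.64 FPKM in WT and 9.06 FPKM in MEIS2-/- cells (log2 fold change -1.03). This lies just past the 2-fold limit of -1, and ETS1 came to -0.97 with a pseudocount of 1 FPKM. ELK3 (NCBI Gene 2004), a partner of serum response factor that is strongly expressed in vessels, did not reach the limit, at 22.97 FPKM and 13.21 FPKM (log2 fold change -0.79). ETS2 (NCBI Gene 2114), a target of the Ras and MAP kinase pathway, was at 12.86 FPKM and 11.78 FPKM (log2 fold change -0.13). All 5 endothelial ETS genes were thus lower, over a range from -2.18 to -0.13 and with a median of -1.03. The log2 fold change of ETV2 minus this median was -1.60, and minus that of ERG it was -0.46. With a pseudocount of 1 FPKM, ERG came to -1.69 and this last difference to -0.89.

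The broadly expressed genes were nearly level or slightly higher. ETV6 (NCBI Gene 2120), a repressor needed for blood stem cells in the bone marrow, was at 3.66 FPKM in WT and 2.93 FPKM in MEIS2-/- cells (log2 fold change -0.31). ELF1 (NCBI Gene 1997), found in many blood and endothelial cells, was at 5.61 FPKM and 6.71 FPKM (log2 fold change 0.25). GABPA (NCBI Gene 2551), the DNA-binding subunit of GABP, was at 3.48 FPKM and 5.53 FPKM (log2 fold change 0.65). The median of these 3 genes was 0.25, and the log2 fold change of ETV2 minus this median was -2.89. ETV2 was 31.5 times as abundant as GABPA in WT cells and 3.17 times as abundant in MEIS2-/- cells.

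SPI1 (NCBI Gene 6688) was nearly silent. It was at 0.48 FPKM in WT and 0.15 FPKM in MEIS2-/- cells, so it stayed under 1 FPKM in both libraries and was not compared. Of 10 genes of myeloid cells known as SPI1 targets, 4 reached 1 FPKM, with a median log2 fold change of -0.04. LYZ, which encodes lysozyme, was the highest of them in WT cells, at 6.59 FPKM and 7.65 FPKM. TYROBP, a signaling adaptor, was lower, from 1.60 FPKM to 0.18 FPKM, and CSF3R, the receptor for granulocyte colony-stimulating factor, was higher, from 1.38 FPKM to 3.24 FPKM. CSF2RA, a chain of the receptor for granulocyte-macrophage colony-stimulating factor, was at 4.42 FPKM and 3.60 FPKM. The defining myeloid genes CSF1R, ITGAM, CD14 and MPO were between 0 and 0.30 FPKM in both libraries.

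Counted over the family, 4 of the 9 compared members (ETV2, ERG, FLI1 and ETS1) were lower in MEIS2-/- cells by 2-fold or more, where 7.97% of all compared genes were. None of the 9 was at least 2-fold higher, where 7.84% of all compared genes were. The median log2 fold change of the 9 genes was -0.79. The 8092 genes with 5 FPKM or more in each library were shifted by a median log2 ratio of 0.12. After this shift was removed ELF1 was at 0.14 and GABPA at 0.54, ETV2 at -2.75 and ERG at -2.28. The direction of each of the 10 members was the same under the pseudocounts and scalings tried.

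**Figure D2:**
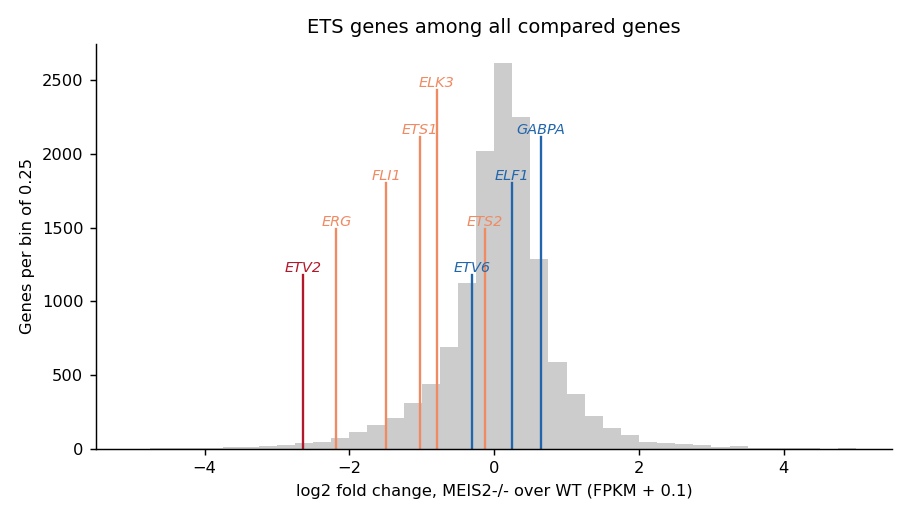
Number of compared genes in bins of 0.25 of the log2 fold change (grey), with the 9 compared ETS members as labelled vertical lines whose height has no meaning, and 6 genes outside -5 to 5 not drawn. ETV2 at -2.64 and ERG at -2.18 stand in the thin left tail, and ETS2, ETV6, ELF1 and GABPA stand within the main peak.

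The reference promoters of ETV2, ERG, ETS2 and GABPA are shown because ETV2 and ERG had the lowest log2 fold changes of the members, ETS2 is the nearly level neighbour of ERG, and GABPA had the highest. The sequences are from RefSeq on GRCh38.p14, read 5′ to 3′ along the gene's strand, with capitals for the letters searched. ETV2 is given up to a few bases past its annotated start (chr19:35641645-35641756, plus strand), ERG in 1 of its 4 annotated windows (chr21:38498505-38498624, minus strand), ETS2 in 1 of 2 windows (chr21:38804963-38805062, plus strand), and GABPA just before its RefSeq start (chr21:25734872-25734971, plus strand). RefSeq and GENCODE place some starts differently, and the stretches of GABPA and ERG lie inside the GENCODE spans of these genes. Each stretch shown holds a match to the letters searched, so these stretches do not represent the windows at large. The same window of ERG also holds CAGATG at -250, outside the printed stretch.
ETV2: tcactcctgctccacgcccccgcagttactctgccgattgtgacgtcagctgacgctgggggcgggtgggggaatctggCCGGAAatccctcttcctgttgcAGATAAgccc
ERG: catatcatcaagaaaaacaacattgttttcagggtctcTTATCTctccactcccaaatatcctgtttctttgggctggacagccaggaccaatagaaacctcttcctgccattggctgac
ETS2: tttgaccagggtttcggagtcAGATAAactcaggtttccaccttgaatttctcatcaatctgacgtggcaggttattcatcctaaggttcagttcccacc
GABPA: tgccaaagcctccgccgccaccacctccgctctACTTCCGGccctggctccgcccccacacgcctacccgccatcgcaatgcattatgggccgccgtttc

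The letters were searched on both strands of windows of 250 bases before and 50 after each annotated start, and 7 of the 10 members matched the RefSeq table. AGATAA, a sequence bound by GATA factors, was in a window of 4 of these 7 genes (ETV2, ERG, ETS2 and ELF1), where 12.4% of all genes in the table held it in a window. In ETV2 it began at base 3 of the transcript, and in ERG it lay on the opposite strand with its first printed base at -82. TGACAG, a sequence bound by MEIS factors, was in a window of 1 of the 7 genes (ELF1), where 18.6% of all genes held it. CAGATG, a form of E-box, was in a window of 3 (ELK3, ELF1 and ERG), where 17.5% of all genes held it. In ELF1 the matches to TGACAG and CAGATG overlapped by a few letters. CCGGAAGT, the long ETS sequence, was in the window of GABPA only, on the opposite strand, where 4.95% of all genes held it. The shorter CCGGAA, which is contained in it and was added after the sequences were seen, was in ETV2 at -21 and in GABPA, where 20.1% of all genes held it. ERG has 4 windows and ELF1 has 3, which gives them more letters to match. FLI1, ETS1 and SPI1 had no entry in the table.

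Pairs of neighbouring ETS genes were compared next. ETS1 and FLI1 lie on opposite strands of chromosome 11 of GRCh38, 99.0 kb apart, with ETS1 from 128458761 to 128587558 and FLI1 from 128686535 to 128813267. These neighbours kept 48.6% and 35.2% of their WT levels. ERG and ETS2 lie on opposite strands of chromosome 21, 144 kb apart, with ERG from 38380027 to 38661780 and ETS2 from 38805307 to 38824955. These neighbours differed widely, as ERG kept 21.0% of its WT level and ETS2 kept 91.6%. GABPA also lies on chromosome 21, from 25734570 to 25772460, and was higher in MEIS2-/- cells. The level of ERG was 0.53 times that of ETS2 in WT cells and 0.121 times in MEIS2-/- cells.

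The human family holds 28 ETS-domain genes, of which 27 were listed and 20 were compared. Of the other 11 compared ETS genes, 1 (9.09%) was at least 2-fold lower, close to the 7.97% of all compared genes, and none was at least 2-fold higher, against 7.84%. The 1 lower gene was FEV, a close relative of ERG and FLI1 best known from serotonin neurons, which was at 2.25 FPKM in WT and 0.32 FPKM in MEIS2-/- cells (log2 fold change -2.48). FEV entered the comparison only through its WT value, so the filter itself favoured a lower value in MEIS2-/- cells. With a filter of 5 FPKM, 0 other ETS genes were lower. With FEV counted, all 3 genes of the ERG subfamily were at least 2-fold lower. The subfamilies were formed after the values were seen.

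ETV4 and ETV5 differed in the opposite direction from ETV2. These genes of the PEA3 subfamily respond to FGF signaling. ETV4 was at 50.04 FPKM in WT and 81.12 FPKM in MEIS2-/- cells (log2 fold change 0.70). ETV5 was at 11.78 FPKM and 17.79 FPKM (log2 fold change 0.59). The third gene, ETV1, was at 2.12 FPKM and 2.23 FPKM (log2 fold change 0.07), which turned to -0.04 after the shift of all genes was removed. None of the 3 passed the 2-fold limit, and their summed level was 63.94 FPKM in WT and 101.14 FPKM in MEIS2-/- cells.

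Among the remaining ETS genes, the repressor ERF was abundant and nearly equal, at 60.48 FPKM and 58.73 FPKM. ELK1, a partner of serum response factor like ELK3, was at 22.87 FPKM and 19.73 FPKM. ELK1 and ELK3 were thus equally abundant in WT cells, and in MEIS2-/- cells ELK3 was at 0.67 times the level of ELK1. ELF2 was higher (7.21 FPKM and 12.14 FPKM, log2 fold change 0.74) and ELF4 was lower (7.78 FPKM and 4.60 FPKM, -0.75), both by less than 2-fold. ELF3, known from epithelia, was at 3.89 FPKM and 5.33 FPKM. The repressor ETV3 was at 7.09 FPKM and 7.29 FPKM, and its log2 fold change of 0.04 became -0.07 after the shift was removed. ELK4 was at 2.93 FPKM and 2.03 FPKM. ETV7, ELF5, EHF, SPDEF, SPIB and SPIC were under 1 FPKM in both libraries, and ETV3L was not analysed here.

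**Figure D3:**
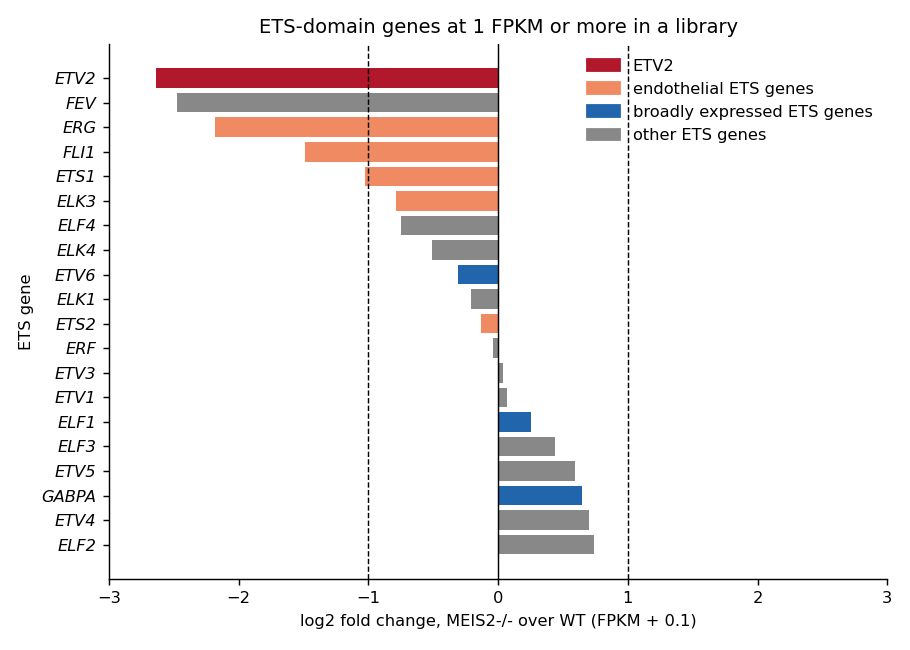
Log2 fold change of the 20 compared ETS genes, ordered from lowest to highest, with bars coloured by group and dashed lines at 2-fold. ETV2, FEV, ERG, FLI1 and ETS1 pass the left line, and no gene passes the right line. ETV3 at 0.04 and ETV1 at 0.07 turn below 0 once the shift of all genes is removed.

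The summed level of the family differed between the libraries by about the difference of ETV2 alone. The 27 listed ETS genes summed to 380.71 FPKM in WT and 287.76 FPKM in MEIS2-/- cells, a difference of -92.95 FPKM. ETV2 alone differed by -92.08 FPKM. Without ETV2, the other 26 genes summed to 271.09 FPKM in WT and 270.22 FPKM in MEIS2-/- cells, 99.7% of the WT sum. After the shift of all genes was removed this share was 92%. Within these 26 genes, 13 were higher by 48.15 FPKM in all and 13 were lower, for a summed difference of -49.02 FPKM. ETV4 made up 31.08 FPKM of the higher part.

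ETV2 made up 28.8% of the summed ETS level of WT cells, followed by ERF with 15.9% and ETV4 with 13.1%. In MEIS2-/- cells ETV4 held 28.2%, ERF 20.4% and ETV2 6.10%. The order of the family thus differed between the libraries, with ETV2 at rank 1 in WT cells and rank 5 in MEIS2-/- cells, and ETV4 at rank 3 and rank 1. ERG went from rank 13 to rank 19 and FLI1 from rank 7 to rank 12. The 5 endothelial ETS genes made up 20.5% of this sum for WT and 14.4% for MEIS2-/- cells. The 3 broadly expressed genes held 3.35% and 5.27%.

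**Figure D4:**
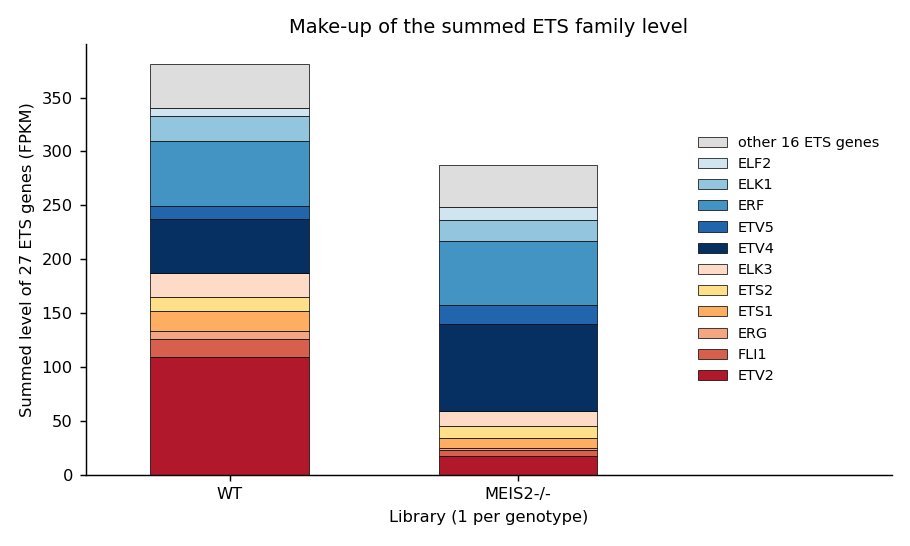
Summed level of the 27 listed ETS genes in FPKM for the WT and the MEIS2-/- library, with 1 segment for each of 11 named genes and 1 for the other 16. The segment of ETV2 is 109.62 FPKM in the WT bar and 17.54 FPKM in the MEIS2-/- bar, and the rest of each bar is about 270 FPKM high.

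A list of 30 genes taken as targets of ETV2 and its endothelial relatives, also chosen with earlier results of these data known, was examined. Of the 30 genes, 27 were compared. Of these, 17 were lower in MEIS2-/- cells by 2-fold or more (63.0%, against 7.97% of all compared genes) and none was at least 2-fold higher. Their median log2 fold change was -1.34, against 0.12 for all compared genes. The largest difference was that of KDR, the main VEGF receptor of endothelium, at 323.77 FPKM in WT and 61.98 FPKM in MEIS2-/- cells (log2 fold change -2.38). EGFL7, a secreted protein of vessels, was at 285.86 FPKM and 69.96 FPKM (-2.03). SOX18, an endothelial transcription factor, was at 34.23 FPKM and 7.67 FPKM (-2.14). NOS3, the endothelial nitric oxide synthase, was at 20.96 FPKM and 5.40 FPKM (-1.94). SOX17 was an exception, with 141.01 FPKM in WT and 264.03 FPKM in MEIS2-/- cells (0.90). SOX17 is also a gene of endoderm and of germ cells.

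None of the 27 compared targets had a lower log2 fold change than ETV2. KDR was the 1 target lower than ERG, but with a pseudocount of 1 FPKM 7 targets were lower than ERG. The log2 fold changes of 11 targets were lower than that of FLI1 and those of 17 lower than that of ETS1. The log2 fold change of ETV2 minus the median of the targets was -1.3. The level of ETV2 was 0.339 times that of KDR in WT cells and 0.283 times in MEIS2-/- cells, so these genes differed by a similar factor. ETV2 exceeded TAL1, a master regulator of blood, 4.01-fold in WT cells and 2.27-fold in MEIS2-/- cells.

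Genes whose products work beside ETS factors were mixed. Of 14 partner genes, 12 were compared, 6 were at least 2-fold lower and none was at least 2-fold higher, where 7.97% of all compared genes were lower and 7.84% higher by as much. TAL1 (27.37 FPKM and 7.71 FPKM), LMO2 (49.09 FPKM and 17.64 FPKM) and GATA2 (89.90 FPKM and 39.95 FPKM), which form blood and endothelial complexes with ETS factors, were lower and also stand in the target list. Of the 9 compared partners outside that list, 3 were at least 2-fold lower, with a median log2 fold change of 0.23. HHEX, a homeobox gene of early blood and endothelium, was at 18.74 FPKM and 4.17 FPKM (log2 fold change -2.14). FOXC1 was at 3.03 FPKM and 1.06 FPKM, and its relative FOXC2, which acts with ETV2 on a composite FOX and ETS sequence, was at 3.39 FPKM and 1.22 FPKM. LDB1, which bridges the TAL1 and LMO2 complex, was at 72.13 FPKM and 65.38 FPKM.

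The mitochondrial genes that GABPA is known to serve differed by less than 2-fold. GABPB1, which encodes its partner subunit, was at 9.84 FPKM in WT and 12.17 FPKM in MEIS2-/- cells. All 10 listed GABP targets were compared, with log2 fold changes from -0.47 to 0.43. Their median was 0.18, close to the 0.12 of all compared genes. None passed 2-fold, where 7.97% of all compared genes were lower and 7.84% higher by as much. TFAM, which packages mitochondrial DNA, was at 5.10 FPKM and 6.89 FPKM (0.43), and TFB2M at 7.47 FPKM and 9.66 FPKM (0.37). TOMM20, a part of the mitochondrial import machinery, was at 93.87 FPKM and 67.82 FPKM (-0.47). SDHB was at 27.62 FPKM and 34.35 FPKM (0.31). The abundant respiratory genes COX4I1 (260.38 FPKM and 286.97 FPKM) and ATP5F1B (279.79 FPKM and 326.92 FPKM) differed little. COX5B, at 0.02, and SDHA, at 0.03, turned below 0 after the shift was removed.

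Genes of signals known to act upstream of ETV2 differed in both directions. Of 13 such genes, all compared, 7 were at least 2-fold lower and 4 were at least 2-fold higher, with a median log2 fold change of -1.02. The 7 lower genes include KDR, which also stands in the target list, and FOXC1 and FOXC2, which also stand among the partner genes. Among all compared genes, 7.97% were lower and 7.84% higher by as much. BMP4, which induces ETV2 in mesoderm, was at 272.89 FPKM in WT and 134.75 FPKM in MEIS2-/- cells. NKX2-5, a cardiac homeobox factor reported to act on ETV2, was at 59.77 FPKM and 16.55 FPKM (-1.85). VEGFA was at 73.37 FPKM and 27.82 FPKM, and the mesoderm factor MESP1 was at 8.12 FPKM and 3.09 FPKM. TBXT, which encodes brachyury of early mesoderm, was higher, at 2.44 FPKM and 10.74 FPKM (2.09), as was MIXL1, at 2.33 FPKM and 6.47 FPKM. ACVR1 and SMAD1, a receptor and an effector of the BMP pathway, were at 9.65 FPKM and 21.24 FPKM, and at 3.55 FPKM and 7.97 FPKM. SMAD5, the close relative of SMAD1, was at 8.94 FPKM and 8.90 FPKM.

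Markers of cell types also differed between the libraries, and for each list the shares of all compared genes at least 2-fold lower and higher were 7.97% and 7.84%. All 8 endothelium markers were lower, 4 of them at least 2-fold, with summed levels of 407.15 FPKM in WT and 101.76 FPKM in MEIS2-/- cells. KDR alone was at 323.77 FPKM and 61.98 FPKM, and made up most of the difference of these sums. TEK, CD34, PECAM1 and ENG were lower by less than 2-fold. All 8 markers also stand in the list of endothelial ETS targets, so the same values are counted again here. Of 6 visceral endoderm markers, 5 were at least 2-fold higher, with sums of 425.42 FPKM and 950.55 FPKM. APOA1, at 401.38 FPKM and 879.13 FPKM, made up most of both sums. Of 6 germ cell markers, 5 were at least 2-fold higher, with sums of 60.88 FPKM and 241.25 FPKM. Of 4 compared pluripotency markers, 2 (POU5F1 and NANOG) were at least 2-fold higher, with sums over the 5 listed of 567.09 FPKM and 1775.21 FPKM. POU5F1 alone was at 285.65 FPKM and 1454.14 FPKM, and made up most of the difference of these sums. DNMT3B was at 76.91 FPKM and 45.35 FPKM, LIN28A at 187.31 FPKM and 204.79 FPKM, and SOX2 at 0.09 FPKM and 0.15 FPKM. Of 6 mesoderm markers, 2 (TBXT and MIXL1) were at least 2-fold higher and 1 (MESP1) was at least 2-fold lower. Their sums of 613.44 FPKM and 432.33 FPKM were mostly HAND1 and APLNR, which were lower by less than 2-fold. Of 4 cardiac markers, 2 (NKX2-5 and MYH6) were at least 2-fold lower, with sums of 457.35 FPKM and 377.77 FPKM. The 6 listed hematopoietic markers summed to only 8.07 FPKM and 6.48 FPKM, with HBZ listed at 0 in WT cells, so mature blood genes were hardly expressed in either library. The part of these cell types in the ETS differences was not tested.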

How the data were processed

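RNA-Seq was compared between 1 WT and 1 MEIS2-/- library at day 4. RNA was extracted with Trizol and 3 ug was used per TruSeq library. The authors deposited FPKM values rounded to 2 decimals, 1 per gene, listed by NCBI Gene number with RefSeq transcripts. The submitters' processing notes name BWA, Bowtie, RSEM and hg19, without versions. FPKM is relative to the mapped total, so a few abundant genes shift all others, and isoforms and reads shared with near-identical sequences cannot be told apart. No counts are given. Low values of single-transcript genes were not multiples of a whole read (agreement 0.13 over 299 genes for WT and 0.32 over 256 for MEIS2-/-, where 1 is complete), so depth is unknown and no counting interval is given.

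Gene numbers were matched to symbols for 17365 of 17397 genes (RefSeq, GRCh38.p14). Genes with at least 1 FPKM in either library were compared (13075, 75.2%) after adding 0.1 FPKM, and a 2-fold difference was counted. The fold computation was checked on data with known changes. Members and lists were chosen with earlier results of these data known. All members and all ETS genes at 1 FPKM or more were named, and in each list the 3 highest in WT cells and the 4 largest changes. A few further genes were named after their values were seen: ETV7, ELF5, EHF, SPDEF, SPIB, SPIC, CSF1R, ITGAM, CD14, MPO, FOXC2, GABPB1, SDHA, AGGF1, S1PR1, VEGFA, MESP1, MIXL1, ACVR1, SMAD1, SMAD5 and the cell type markers named singly. With no replicates, an alternative was set against the 2-fold limit, and counts against a factor of 1.5. Gene positions came from GENCODE 29 on GRCh38, not from hg19. Proteins were not compared here. Scripts ran under Python 3.11.15 with pandas 2.3.3, numpy 2.4.6 and matplotlib 3.10.9.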

Additional observations from a re-analysis of the deposited data

How the results depend on the processing

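Alternatives were pseudocounts of 1 and 0.01 FPKM, rescaling to a median log2 ratio of 0 or by the trimmed mean of log ratios, no filter or 5 FPKM, and thresholds of 1.5-fold and 4-fold. Of 123 alternative values over 26 results, 110 were labelled as unchanged. For log2 fold changes this meant the same side of the 2-fold limit, and for counts and ETV2 minus ERG a factor within 1.5. The rescaled sums without ETV2 were labelled unchanged, and the shares over the 10 members moved, without such a rule. Part of the unchanged values could hardly change. A rescaling shifts all log2 values almost equally, so differences between genes and counts of targets lower than a factor stay nearly the same. A filter of 5 FPKM admits all the endothelial ETS genes, so it cannot move their median. No log2 fold change among these results changed sign. With a 4-fold threshold, 2 members and 3 endothelial targets were lower. With 1.5-fold, 1 member was higher, and 2 other ETS genes were lower and 3 higher. With a filter of 5 FPKM, 0 other ETS genes were lower, and without a filter 2 were higher. These follow from the settings themselves, which move the limit or the genes admitted. Over the 10 members alone, ETV2 made up 54.6% of the WT sum and 23.6% of the MEIS2-/- sum. With a pseudocount of 1 FPKM, ETS1 was at -0.97 and SPI1 at -0.36, and, added after seeing the data, ETV2 minus ERG was -0.89 and 7 targets were lower than ERG. The rescaled sums of the ETS genes without ETV2, added after seeing the data, were 92% and 92.7% of WT, and 101% as a share of all summed FPKM. No paired analysis was possible because each genotype has 1 library. The unknown depth limits SPI1 and other genes under 1 FPKM most.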

Other observations

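The 3 compared genes whose levels in both libraries lay nearest to those of ETV2, by distance on the log2 scale over 2 libraries, were ALDOC, WDR54 and P4HA1. ALDOC, a glycolytic aldolase, was at 100.26 FPKM in WT and 15.03 FPKM in MEIS2-/- cells. WDR54 was at 90.53 FPKM and 19.17 FPKM. P4HA1, a subunit of the collagen prolyl hydroxylase, was at 135.05 FPKM and 16.96 FPKM. The distances were 0.256, 0.304 and 0.305, and over only 2 libraries many genes can share such a pattern.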
